A study of Xenopus tropicalis with 44 samples.

Results

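Chordin, Noggin, Follistatin, Cerberus, Frzb, Dickkopf-1 and Admp are the secreted signalling proteins for which the Spemann organizer, the dorsal signalling centre of the frog embryo, is best known. Their RNAs were followed here in intact Xenopus tropicalis embryos, a diploid clawed frog, as the rows of the count table named chrd.1, nog, fst, cer1, frzb, dkk1 and admp. All 7 names were found among the 28778 genes of the table, and all 7 passed the filter on low counts with 16064 genes in all. They were taken by name, with no threshold on expression, although earlier results of these data were known when the names were chosen.

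The organizer forms on the dorsal side, where maternal Wnt signalling meets Nodal signalling, and it protects neighbouring cells from ligands made elsewhere in the embryo. Chordin and Noggin bind BMP ligands and keep them from their receptors, and Follistatin binds activin and some BMPs. Cerberus binds Nodal, BMP and Wnt ligands, whereas Frzb traps Wnts and Dickkopf-1 blocks the Wnt co-receptor Lrp5/6. Admp is the exception, since it is a BMP-like ligand that is itself made in the organizer and held in check by Chordin. In the frog these genes are transcribed mainly from the zygotic genome, and their RNA is studied as a readout of early dorsal transcription.

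The series title names E2f1, a cell-cycle transcription factor, and Otx1, a homeodomain transcription factor of the head, as maternal factors that modulate the minor wave of zygotic transcription. The 44 mRNA libraries formed 22 groups of 2. Untreated wild-type embryos (WT) were collected at stages 3, 4, 5, 6, 7, 8, 9, 10 and 13, of which the first 3 are the embryos with 4, 8 and 16 cells in the sample titles. Injection of a morpholino, a chemically modified antisense strand, against E2F1 gave the E2F1 MO group, which covered stages 3 to 8. Rescue embryos received that morpholino together with E2F1 mRNA and covered stages 6 to 8. Embryos injected with an OTX1 morpholino (OTX1 MO), and embryos injected against both genes (double MO), covered stages 7 and 8. No group received a control morpholino, and whether a pair of libraries stems from different clutches is not stated in the labels. All p-values therefore rest on the variation from library to library, which may be technical.

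Libraries held 9266513 to 37174326 counts, with a median of 20541736, and a count of 3 corresponded to 0.0706 to 0.329 CPM in a single library. CPM are counts scaled to the TMM-adjusted library size. Levels are given as the values of replicates 1 and 2 or as mean ± SD over the 2 libraries. RNA of e2f1 was higher in rescue than in WT embryos by 5.66, 6.04 and 5.94 on the log2 scale at stages 6, 7 and 8, and higher than in E2F1 MO by 5.73, 6.31 and 6.20, so rescue embryos held far more e2f1 RNA than WT in each comparison below. In E2F1 MO against WT, e2f1 changed by -0.27 at stage 7 (adjusted p = 0.034) and -0.26 at stage 8 (adjusted p = 0.041), and otx1 by 0.49 and 0.66 (2.9e-05 and 2.2e-07). In OTX1 MO, otx1 RNA was higher than in WT by 0.70 and 0.78 (4.9e-08 and 5.7e-09). A morpholino acts on translation or splicing, so these levels do not measure the knockdown. Summed levels of 15 marker genes of adult blood, liver and ovarian follicle stayed between 0 and 5.51 CPM in all libraries. From stage 7 on the embryo groups differed in many genes. The share of genes called between E2F1 MO and WT was 1.95% at stage 6 and 47.2% at stage 7. The DNA glycosylase RNA neil3, chosen after its values were seen, stood at 127 CPM in WT at stage 6, at 0 in WT, OTX1 MO and double MO at stages 7 and 8, and at 73.3 to 98.7 CPM in E2F1 MO and rescue at those stages. Likewise nostrin had 0 counts in WT at stage 7 but 38.1 CPM in WT at stage 8. It held at most 0.052 CPM in E2F1 MO, OTX1 MO and double MO at both stages, and 36.4 and 39 CPM in rescue. At stage 6 nostrin stood at 50.5 CPM in WT and 47.7 CPM in E2F1 MO. Of 8644 RNAs present at all WT stages from 3 to 6, 9 had no count in WT at stage 7 and 7 at stage 8, against 3 and 2 in E2F1 MO, 5 and 5 in OTX1 MO, 4 and 5 in double MO and 0 in rescue at both stages. The 2 libraries of rescue stage 8 also differed more from each other than those of other groups, with a chi-square per gene of 32.9, followed by 14.3 in WT stage 10, 13.6 in double MO stage 7 and 1.4 to 5.4 in the remaining groups. The injection and whatever else separates these groups cannot be told apart in any comparison of stage 7 or 8 between groups below. In steps between stages 6, 7 and 8 within WT or E2F1 MO, stage likewise cannot be told apart from whatever else separates the libraries.

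**Figure D1:**
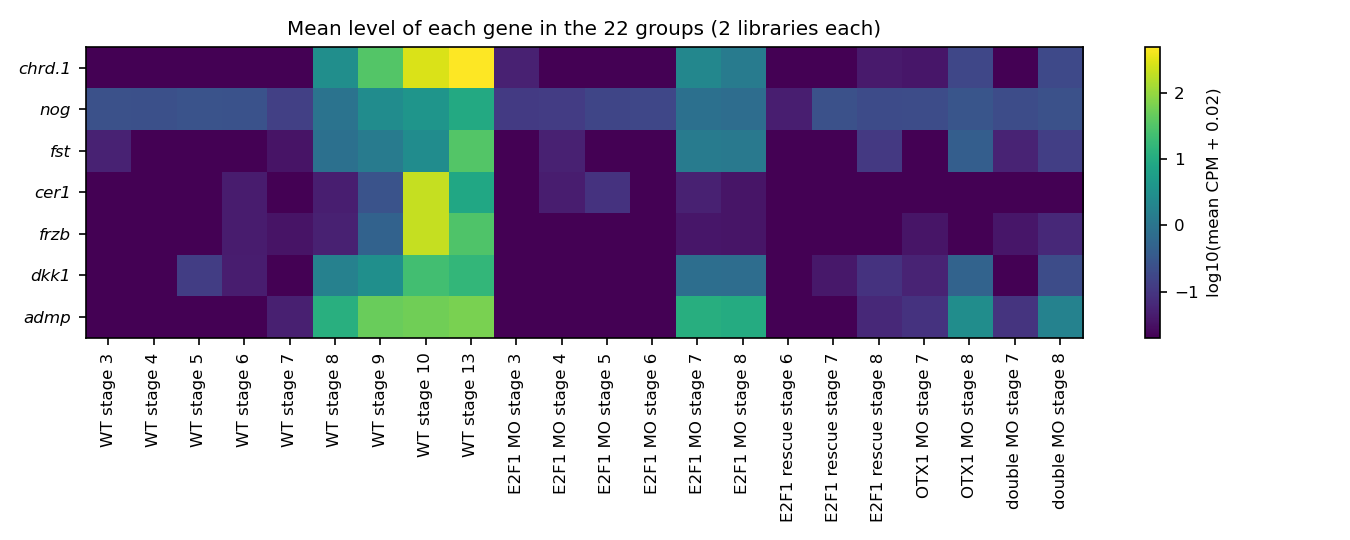
Mean CPM of the 7 genes (vertical axis) in the 22 groups (horizontal axis, 2 libraries each), coloured by log10 of the mean CPM plus a small offset. In WT embryos levels rose from stage 8, and the same 5 genes (chrd.1, nog, fst, dkk1 and admp) were already present in E2F1 MO embryos at stage 7. The group means of cer1 and frzb were at most 0.0667 CPM in injected embryos. These were sampled no later than stage 8, when WT held 0.0259 and 0.0303 CPM.

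During cleavage the 7 RNAs were at the edge of detection. Over the 20 libraries of stages 3 to 6 and of WT stage 7, chrd.1 and admp were at 0 in 19, dkk1 and frzb in 18, and fst and cer1 in 17. The summed counts of those 20 libraries were 1 for chrd.1, 2 for admp and frzb, 3 for fst and 5 for cer1 and dkk1. Noggin RNA was the exception, with 61 counts in all, a count in 18 of the 20 libraries and a highest level of 0.385 CPM. Between successive WT stages from 3 to 7 edgeR called none of the 7, while 8.81, 27.3, 11.2 and 46.9% of all genes tested were called in the 4 steps. DESeq2 also called 0 in each, and at an unadjusted p under 0.05 only dkk1 differed, at stage 5 against 4 (4 counts against 0). Without WT stage 5 replicate 1 that change was called (adjusted p = 0.04).

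At stage 8, the mid-blastula, 5 of the 7 RNAs rose in WT embryos against stage 7, where 21.1% of all genes tested rose. The 5 were chrd.1, nog, fst, dkk1 and admp. The median log2 change was 5.39 over the 7 (5.26 with groups at 0 set to their bound) and 0 over all genes. Cer1 and frzb, with 1 count each at stage 8, were not called.

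**Figure D2:**
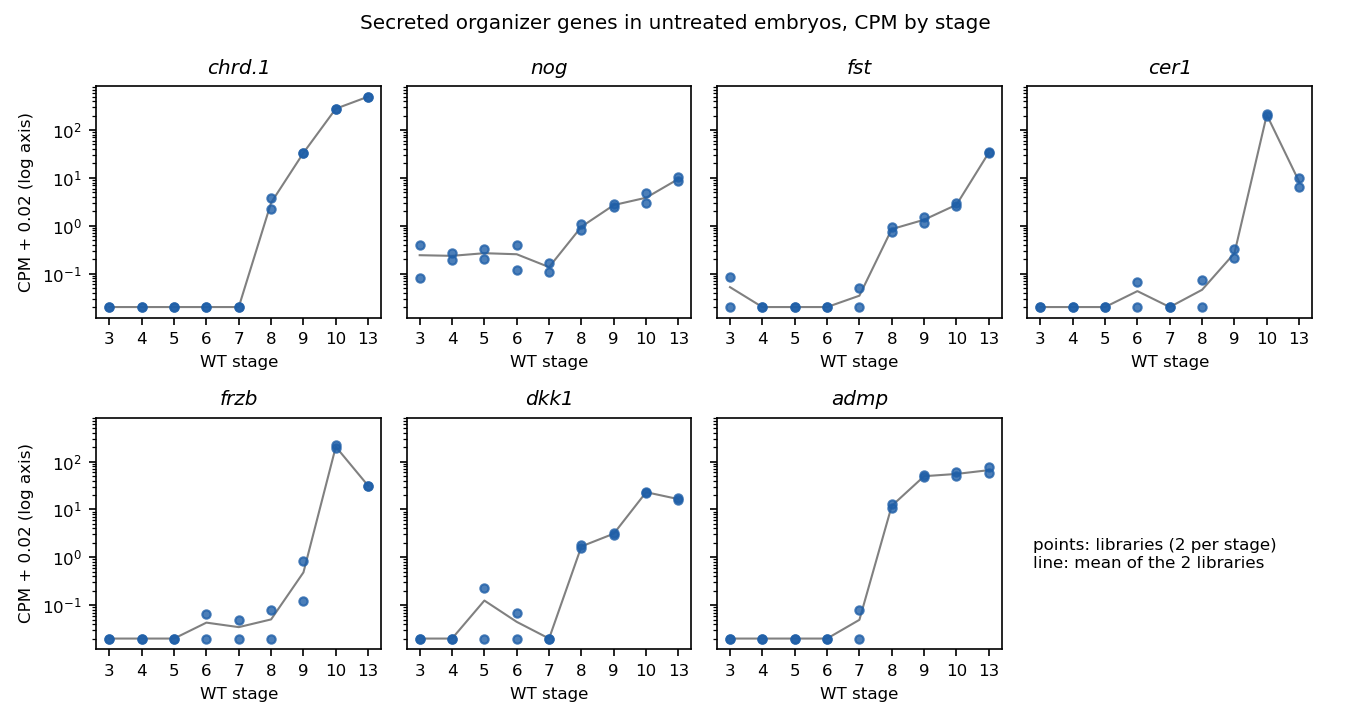
CPM plus a small offset (log axis) of each gene against WT stage, with 1 point per library and a line through the mean of the 2 libraries. Admp, chrd.1, dkk1, nog and fst rose at stage 8. Cer1 and frzb reached 1 CPM in both libraries first at stage 10, and these 2 fell again by stage 13.

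Chordin RNA rose at every step from stage 8 to stage 13. It had no count in either WT library of stage 7 and stood at 3.84 and 2.18 CPM at stage 8 (74 and 36 counts), at least 70.1-fold higher (adjusted p = 1.3e-13, edgeR quasi-likelihood test with Benjamini-Hochberg adjustment over all genes tested, as throughout). The 2 libraries of stage 9 held 33.5 and 33.2 CPM, an increase of 3.44 ± 0.15 (log2 change ± SE) over stage 8 with an adjusted p of 2.4e-18. At stage 10, the onset of gastrulation, 280 and 278 CPM were measured, a further 3.06 ± 0.10 (adjusted p = 1.6e-22), and at stage 13, in the neurula, 495 and 501 CPM (0.84 ± 0.092, adjusted p = 1.2e-09). No library of a stage overlapped with a library of the stage before it.

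Noggin RNA rose less. Its WT libraries of stage 7 held 0.146 and 0.0874 CPM and those of stage 8 held 0.778 and 1.09 CPM, a log2 change of 2.93 ± 0.65 (adjusted p = 0.00024). It reached 2.48 and 2.89 CPM at stage 9 (1.53 ± 0.46, adjusted p = 0.011), a call lost without WT stage 8 replicate 1 (0.12) or WT stage 9 replicate 2 (0.076). The step to 4.70 and 2.97 CPM at stage 10 was not called (0.53 ± 0.41, adjusted p = 0.27), whereas that to 8.50 and 10.5 CPM at stage 13 was (1.29 ± 0.40, adjusted p = 0.0034). The WT levels thus kept their order by stage from 7 on, with the spread at stage 10 as large as the step before it.

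Follistatin RNA stayed low up to stage 10. From 0 and 0.0291 CPM at stage 7 it went to 0.933 and 0.726 CPM at stage 8, a ratio of 57.4 with a counting interval of 9.54 to 2340 because stage 7 rests on 1 count (adjusted p = 1.4e-05). Stage 9, with 1.52 and 1.11 CPM, did not differ by the test (0.64 ± 0.49, adjusted p = 0.4). Stage 10 held 2.92 and 2.53 CPM (1.07 ± 0.44, adjusted p = 0.034), a call lost without WT stage 9 replicate 2 (0.18) or WT stage 10 replicate 1 (0.16) and with total counts alone as scaling (0.10). The main rise came between stages 10 and 13, to 32.4 and 34.9 CPM (3.61 ± 0.37, adjusted p = 1.2e-10).

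Cerberus RNA appeared later and left earlier. It had 1 count at stage 8, stood at 0.190 and 0.304 CPM at stage 9 (2.95 ± 1.2, adjusted p = 0.073) and at 200 and 215 CPM at stage 10. The latter step was a log2 change of 9.65 ± 0.30 (adjusted p = 1.3e-22), the largest of any of the 7 genes between groups that both held more than 3 counts. At stage 13 only 6.53 and 10.1 CPM were left, a log2 change of -4.62 ± 0.20 (adjusted p = 5.3e-19).

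Among the Wnt antagonists, Frzb RNA followed Cerberus RNA. Stage 9 held 0.825 and 0.101 CPM (13 and 2 counts) against 1 count at stage 8, a ratio of 15.1 with a counting interval of 2.33 to 637. The call (adjusted p = 0.02) was lost without WT stage 8 replicate 1 (0.19) or WT stage 9 replicate 1 (0.56). At stage 10 frzb stood at 188 and 219 CPM (8.88 ± 0.30, adjusted p = 1e-20, and 7.93 or 10.89 without replicate 2 or 1 of WT stage 9), and at stage 13 at 31.4 and 30.9 CPM, a change of -2.71 ± 0.19 (adjusted p = 1.7e-13). Dickkopf-1 RNA was earlier. It had no count at stage 7 and 1.76 and 1.57 CPM at stage 8, at least 38.3-fold higher (adjusted p = 1.6e-09). Levels of 3.24 and 2.94 CPM at stage 9 lay above both stage 8 libraries without a call (0.88 ± 0.34, adjusted p = 0.06, against 0.02 with DESeq2 and 0.033 with fewer libraries in the fit). Dkk1 was highest at stage 10, at 23.2 and 22.5 CPM (2.89 ± 0.30, adjusted p = 2.1e-10), and the 15.6 and 17.1 CPM of stage 13 were not called lower (-0.48 ± 0.27, adjusted p = 0.1), although they were with total counts alone (-0.77, adjusted p = 0.011) and with fewer libraries in the fit (0.044).

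The ligand Admp was the most abundant of the 7 RNAs, per length, at stages 8 and 9. It had 2 counts in the WT libraries of stage 7 and stood at 10.5 and 13.2 CPM at stage 8, a ratio of 403 with a counting interval of 111 to 3340 (adjusted p = 9.3e-15). The level rose to 47.1 and 51.6 CPM at stage 9 (2.06 ± 0.19, adjusted p = 1.6e-09). Values of 59.0 and 51.0 CPM at stage 10 and of 56.9 and 75.1 CPM at stage 13 overlapped with their preceding stage and were not called (0.16 ± 0.18, adjusted p = 0.46, and 0.26 ± 0.18, adjusted p = 0.18). The direction of these steps depends on the scaling. With total counts alone both turned, to -0.08 and -0.02 (adjusted p of 0.71 and 0.91), while the latter was called higher with RLE factors (0.46, adjusted p = 0.018), with DESeq2 (0.46, adjusted p = 0.008) and without WT stage 13 replicate 1 (0.47, adjusted p = 0.039).

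In the steps after stage 8 the counts of called genes stood against a rising background. At stage 9 against 8, 4 of the 7 rose and 0 fell, where 13.1% of all genes tested rose and 11.4% fell. At stage 10 against 9, 5 rose and 0 fell, against 32.7% and 30.6% of all genes. At stage 13 against 10, 3 rose (chrd.1, nog and fst) and 2 fell (cer1 and frzb), a share near the background of 40.6% higher and 36.3% lower. The first WT stage with at least 1 CPM in both libraries was 8 for chrd.1, dkk1 and admp, 9 for nog and fst, and 10 for cer1 and frzb. With total counts alone as scaling the median of all genes shifted by -0.19 at stage 10 against 9 and by -0.26 at stage 13 against 10, and both uncalled admp changes turned, to -0.08 and -0.02.

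Per length the make-up of the secreted organizer RNA turned over between stages 8 and 13. Levels in TPM, the share of a transcript among all after division by gene length, can be compared between genes, and their sum over the 7 was 28.0 ± 2.40 at stage 8, 117 ± 3.83 at stage 9, 915 ± 87.0 at stage 10 and 400 ± 13.4 at stage 13 (n = 2 each). Admp made up 59.3% of this sum at stages 8 and 9, 6.42% at stage 10 and 14.1% at stage 13. Cer1 and frzb went from 0.237% and 0.171% at stage 8 to 41.6% and 28.3% at stage 10, with 381 ± 40.9 and 260 ± 42.4 TPM. Chrd.1 was 8.31% of the sum at stage 8 and 57.7% at stage 13, when it stood at 231 ± 3.57 TPM. Set against admp, the ligand it binds, chrd.1 stood at 14.3 ± 7.59% of the admp TPM at stage 8, 36.6 ± 2.55% at stage 9, 275 ± 27.2% at stage 10 and 415 ± 77.5% at stage 13. Among chrd.1, nog and fst alone, chrd.1 made up 30.9% of their summed TPM at stage 8 and 91.3% at stage 10, although nog RNA exceeded chrd.1 RNA per length at stage 8, with 4.35 ± 1.04 against 2.28 ± 0.884 TPM. This share leaves out cer1, whose product also binds BMP ligands. At stage 10 cer1 stood at 381 TPM and chrd.1 at 160 TPM. The order of nog and chrd.1 at stage 8, and the share of chrd.1, depend on the gene lengths used, 669 and 4105 bases. Before division by length chrd.1 was the higher at stage 8, at 3.01 against 0.933 CPM.

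**Figure D3:**
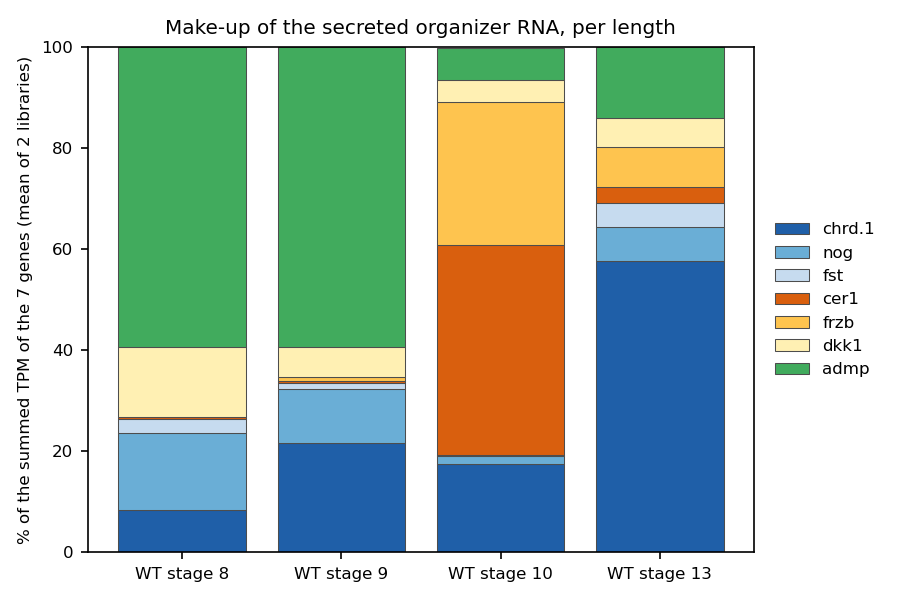
Share of each gene in the summed TPM of the 7 genes (vertical axis, %, mean of 2 libraries) at WT stages 8, 9, 10 and 13. Admp held 59.3% at stages 8 and 9, cer1 and frzb 41.6% and 28.3% at stage 10, and chrd.1 57.7% at stage 13.

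Genes that work with the 7 were followed through the same steps from lists. Of 18 organizer transcription factor genes 14 rose at stage 8 and 0 fell, among them sia1 and sia2, homeobox targets of the maternal Wnt signal, at 5.89 ± 0.405 and 10.4 ± 1.55 CPM against 0.0146 and 0.248 CPM at stage 7. The median log2 change of that list was 3.88 (3.58 with bounds). The notochord homeobox gene not went from 13.2 ± 0.697 to 61.6 ± 1.92 CPM. At stage 9, 12 of the 18 rose and 1 fell, with gsc and foxa4 going from 1.17 to 10.4 and from 2.80 to 28.0 CPM, and at stage 10, 13 rose and 5 fell, with lhx1 going from 1.53 to 121 CPM and otx2 from 3.97 to 180 CPM. At stage 13, 5 rose and 12 fell. The median log2 change over all genes was 0, 0.01, 0.04 and 0.08 in these 4 steps. In them 21.1, 13.1, 32.7 and 40.6% of all genes rose and 23.1, 11.4, 30.6 and 36.3% fell.

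Ligand and receptor genes of the BMP, Nodal and Wnt pathways were followed in the same steps, whether or not one of the 7 binds the product. Of 17 genes for BMP-class ligands, their receptors and Smads, 4 rose and 6 fell at stage 8, near the background of 21.1% higher and 23.1% lower, and bmp4 went from 1.04 ± 0.107 to 8.37 ± 0.834 CPM (3.00 ± 0.26, adjusted p = 7.7e-12). At stage 10, 9 of these rose and 2 fell, where 32.7% of all genes rose and 30.6% fell. Bmp7.1 went from 1 count to 26.2 CPM, and admp2, another Admp-like ligand gene, from 1.84 to 50.2 CPM. Of 24 genes for Nodal and Wnt ligands, receptors and co-receptors 8 rose and 7 fell at stage 8, led by nodal3.1, at 13.1 ± 1.35 against 0.132 CPM. At stage 9, 12 rose and 2 fell, where 13.1% of all genes rose and 11.4% fell. Nodal stood at 8.93 against 0.32 CPM and wnt8a at 10.7 against 0.964 CPM. At stage 10, when cer1 was at its highest, nodal stood at 10.5 ± 1.4 CPM, whereas nodal3.1 and nodal6 stood lower than at stage 9 (log2 changes of -2.21 ± 0.27 and -3.79 ± 0.27).

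Further antagonists and modulators of BMP, Nodal, activin and Wnt signalling, outside the 7, were listed as well. Of 13 genes, namely BMP, Nodal and activin antagonists or modulators together with bmp1 and tll1, whose protease products cleave Chordin, 4 rose and 1 fell at stage 8, 2 rose and 1 fell at stage 9, 6 rose and 2 fell at stage 10, and 5 rose and 7 fell at stage 13. Lefty, a Nodal feedback inhibitor, stood at 4.63 CPM at stage 8, 35.9 CPM at stage 9 and 103 CPM at stage 10. Szl, whose product sizzled acts on the ventral side by sparing Chordin from cleavage, went from 1.14 to 78.6 CPM at stage 10, while the maternal Nodal antagonist RNA dand5 fell from 517 to 110 CPM and then to 2.94 CPM at stage 13. Of 13 genes for Wnt antagonists, 1, 2, 5 and 10 rose and 1, 1, 4 and 1 fell in the 4 steps. Of all genes tested 21.1, 13.1, 32.7 and 40.6% rose and 23.1, 11.4, 30.6 and 36.3% fell in these steps, so that the counts of both lists lay near the background at several of them. The secreted Frizzled-related gene frzb2 had no count at stage 9 and 19.0 CPM at stage 10, at least 224-fold higher, and shisa2 went from 0.269 to 78.5 CPM at stage 13.

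Cleavage-stage embryos of the E2F1 MO group also held little of these RNAs. At stages 3, 4, 5 and 6 edgeR called 0 of the 7, where 7.55, 3.13, 3.24 and 1.95% of all genes tested were called. DESeq2 also called 0, and at an unadjusted p under 0.05 only dkk1 differed, at stage 5 (0 counts against 4 in WT). A fall was not detectable at this depth in 6 of the 7, whose WT level was itself near 0. Nog stood at 0.0936 to 0.154 CPM in E2F1 MO and at 0.215 to 0.247 CPM in WT. Its WT groups held 7 to 10 counts each, so a fall of nog could hardly be called either.

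At stage 7, E2F1 MO embryos held the 5 RNAs that WT embryos held at stage 8. All 5 (chrd.1, nog, fst, dkk1 and admp) rose against WT of the same stage, where 25.3% of all genes tested rose. Admp stood at 10.8 and 12.2 CPM against 0.0585 and 0, a ratio of 394 with a counting interval of 109 to 3260 (adjusted p = 4.7e-15). Chrd.1 stood at 2.06 and 2.21 CPM against 0 in both WT libraries, at least 48.6-fold higher (adjusted p = 7.4e-13). Every E2F1 MO library lay above every WT library for each of the 5. The same held for cer1, with 1 count in each E2F1 MO library and 0 in WT. The share of all genes separated in this way was not computed. Dkk1, at 0.708 and 0.790 CPM, was at least 17-fold above WT, which had no count (adjusted p = 2.5e-07). Fst, at 1.15 and 1.51 CPM, exceeded the 1 WT count by a ratio of 90.6 with a counting interval of 15.8 to 3620 (adjusted p = 1.3e-07), and nog, at 1.0 and 0.625 CPM against 0.146 and 0.0874, rose by 2.75 ± 0.62 (adjusted p = 0.00024). Cer1 and frzb were not called, with 2 counts and 1 count in E2F1 MO.

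The rise was also followed within E2F1 MO embryos, in comparisons chosen after the data were seen. Against E2F1 MO embryos of stage 6, the same 5 RNAs rose at stage 7, where 28.4% of all genes tested rose. Admp was at least 147-fold and chrd.1 at least 27.2-fold higher. Over the same step nostrin RNA went from 47.7 to 0.0165 CPM, and what else separates these libraries was not tested. Between stages 7 and 8 edgeR called 0 of the 7 higher, where 14% of all genes rose, and only chrd.1 lower, at -0.67 ± 0.21 (adjusted p = 0.017), where 16.4% fell. That call was lost without any 1 of E2F1 MO stage 7 replicate 1 (0.052), stage 7 replicate 2 (0.094), stage 8 replicate 1 (0.092) and stage 8 replicate 2 (0.072). E2F1 MO at stage 7 was also set against WT at stage 8. Admp, nog and fst were not called (log2 changes of -0.03 ± 0.20, -0.18 ± 0.49 and 0.66 ± 0.46), and dkk1 and chrd.1 were lower, at -1.16 ± 0.38 (adjusted p = 0.011) and -0.52 ± 0.21 (adjusted p = 0.034), where 24.3% of all genes were lower. Without WT stage 8 replicate 1 the adjusted p was 0.066 for dkk1 and 0.99 for chrd.1, whose change was then -0.03. Without E2F1 MO stage 7 replicate 1 it was 0.055 and 0.13, and without replicate 2 it was 0.064 for chrd.1.

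**Figure D4:**
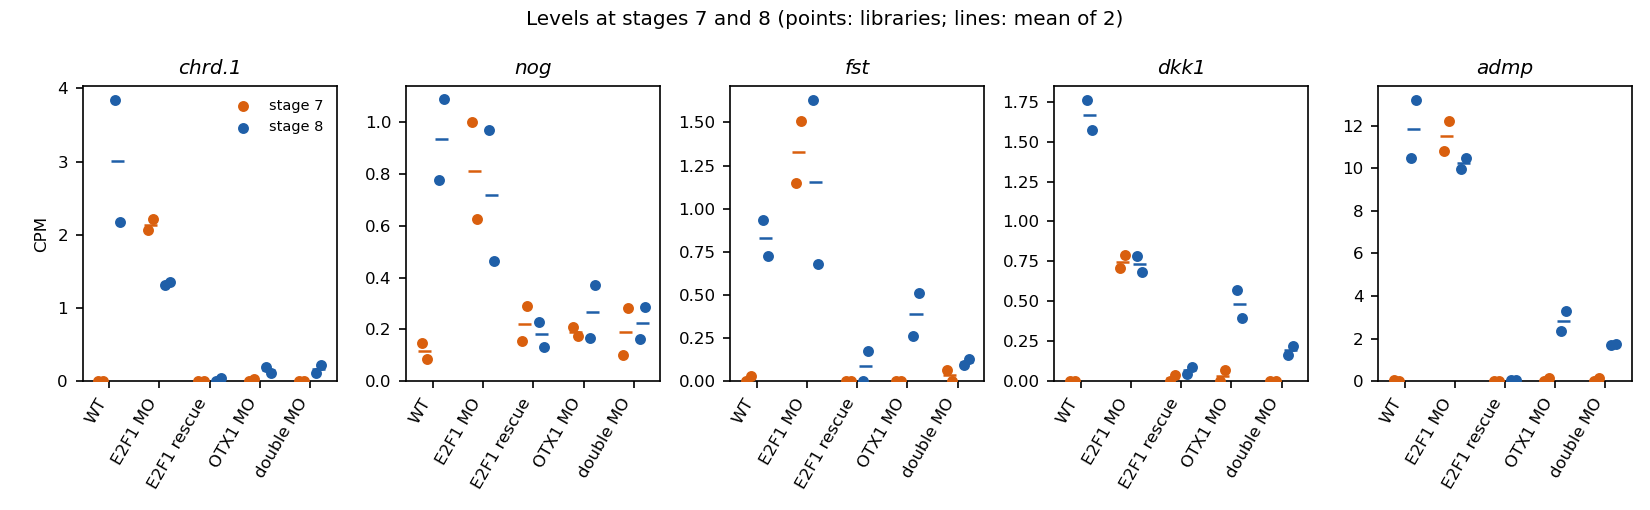
CPM of chrd.1, nog, fst, dkk1 and admp (vertical axes from 0) in the 5 kinds of embryo at stage 7 (orange) and stage 8 (blue), with 1 point per library and a line at the mean of the 2. At stage 7 only the E2F1 MO libraries rose off the axis, apart from low nog in all groups, and at stage 8 the levels in rescue, OTX1 MO and double MO stayed below both WT libraries.

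By stage 8 the order of E2F1 MO and WT had turned for chrd.1 and dkk1. Chrd.1 stood at 1.32 and 1.36 CPM in E2F1 MO against 3.84 and 2.18 CPM in WT, a log2 change of -1.19 ± 0.22 (adjusted p = 4.6e-05). Dkk1 stood at 0.784 and 0.682 CPM against 1.76 and 1.57, a change of -1.18 ± 0.38 (adjusted p = 0.0097) that was not called without WT stage 8 replicate 1 (0.062) or E2F1 MO stage 8 replicate 2 (0.052). These 2 of the 7 fell, where 23.7% of all genes tested fell, so the count lay near the background. Admp, at 9.97 and 10.5 CPM against 10.5 and 13.2, was not called (-0.21 ± 0.20, adjusted p = 0.42). Neither was nog (-0.37 ± 0.50, adjusted p = 0.58) nor fst (0.46 ± 0.47, adjusted p = 0.44, and -0.29 without E2F1 MO stage 8 replicate 1), and the libraries of both groups overlapped for these 3. The change of the E2F1 MO effect from stage 7 to stage 8 was tested directly and was called lower for all 5, at -9.80 for chrd.1, -8.29 for dkk1, -8.58 for admp, -5.59 for fst and -3.12 for nog (adjusted p of 0.0017 or less; 39% of all genes were called in either direction). The first 4 of these values rest on WT groups of stage 7 with 0 to 2 counts and depend on the prior count of the fit, so they are not measures of size.

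Organizer transcription factor genes were measured in the same embryos. At stage 7, 17 of 18 were higher in E2F1 MO than in WT and 0 lower, where 25.3% of all genes tested were higher. Sia2 stood at 9.92 ± 1.1 against 0.248 CPM and not at 34.0 ± 0.557 against 13.2 CPM. At stage 8, 2 were higher and 3 lower, where 26.2% of all genes were higher and 23.7% lower. Otx1 is itself in this list and was among the higher genes at both stages (log2 changes of 0.49 and 0.66). The gene not, at 36.5 ± 0.409 against 61.6 CPM, was among those that fell (-0.76 ± 0.11, adjusted p = 9e-08). Of the 17 BMP-class genes 5 were higher and 4 lower at stage 7, near the 47.2% of all genes called there in either direction, and 7 higher and 3 lower at stage 8. Of the 24 Nodal and Wnt genes 13 were higher and 6 lower at stage 7, and 6 higher and 4 lower at stage 8. Bmp4 and nodal3.1, at 9.07 ± 0.394 and 8.16 ± 0.135 CPM, were also above WT at stage 7 (3.12 ± 0.24, adjusted p = 3.9e-13, and 5.90 ± 0.43, adjusted p = 5.8e-12). Of the 13 antagonist, modulator and protease genes 3 were higher and 4 lower at stage 7, and 1 higher and 6 lower at stage 8. Among them bmp1, which encodes a protease that cleaves Chordin, was lower at both stages. It stood at 31.0 against 84.6 CPM at stage 7 (-1.45 ± 0.068, adjusted p = 2.6e-21) and 43.3 against 124 CPM at stage 8 (-1.51 ± 0.067, adjusted p = 6.9e-22). Of the 13 Wnt antagonist genes 3 were higher and 1 lower at stage 7, and 4 higher and 0 lower at stage 8.

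Embryos given E2F1 mRNA along with the morpholino held almost none of the 7 RNAs. At stage 7 chrd.1, fst and admp had no count in either rescue library, dkk1 had 1 count, and nog stood at 0.154 and 0.291 CPM. Against E2F1 MO at that stage all 5 were lower, where 23.3% of all genes tested were lower. The bounds were at least 205-fold for admp, 38-fold for chrd.1 and 23.5-fold for fst. The dkk1 ratio was 0.0251 with a counting interval of 0.000622 to 0.147, and the nog change was -1.84 ± 0.58 (adjusted p = 0.0085), a call lost without E2F1 MO stage 7 replicate 1 (0.11) or rescue stage 7 replicate 1 (0.10). WT of stage 7 held 0 to 2 counts per gene (8 for nog), so a fall against it could hardly be called. Against WT of stage 7 edgeR called 0 of the 7, where 33.3% of all genes were called, as did DESeq2, and the unadjusted p was under 0.05 for 0 of them. Stage 6 likewise gave 0 by both tools against WT (3.01% of all genes) and against E2F1 MO (0.131%). There only nog against WT, with means of 0.0272 and 0.234 CPM, had an unadjusted p under 0.05 (adjusted p = 0.33).

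At stage 8 these RNAs were low in rescue embryos as well, in both of the libraries that differed most from each other. Admp stood at 0.0458 and 0.0445 CPM (1 count each) against 10.5 and 13.2 CPM in WT, a ratio of 0.00384 with a counting interval of 0.000463 to 0.014. Chrd.1 had 1 count in the 2 rescue libraries, a ratio of 0.00735 to WT with an interval of 0.000184 to 0.0418. All 5 were lower than in WT, where 25.2% of all genes were lower, and all 5 were lower than in E2F1 MO, where 19.8% were. Without rescue stage 8 replicate 1 or 2, 5 and 5 were called against WT, and 5 and 4 against E2F1 MO. Dkk1 held 3 counts, a ratio to WT of 0.0404 (0.00811 to 0.124), and fst and nog changed by -3.14 ± 0.77 (adjusted p = 0.00091) and -2.32 ± 0.66 (adjusted p = 0.0028) against WT. The fst change against WT was -2.20 without rescue stage 8 replicate 1 (adjusted p = 0.025) and -7.27 without replicate 2, which held all its counts. The nog change against E2F1 MO (-1.96 ± 0.64, adjusted p = 0.013) was lost without E2F1 MO stage 8 replicate 1 (0.20) or rescue stage 8 replicate 2 (0.098). From stage 6 to 7 and from 7 to 8, in comparisons added after the data were seen, edgeR and DESeq2 called 0 of the 7 within rescue embryos, where 34.6% and 10.9% of all genes were called. Nog in the former and fst in the latter had an unadjusted p under 0.05 (adjusted p = 0.086 and 0.19). Of the organizer transcription factor genes 1 was higher and 12 were lower in rescue than in WT at stage 8, with 27% of all genes higher, and sia1 stood at 0.295 ± 0.166 against 5.89 CPM, and bmp4 stood at 1.36 against 8.37 CPM among 17 BMP-class genes of which 6 were higher and 5 lower. Of the 24 Nodal and Wnt genes 6 were higher and 11 lower.

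In OTX1 MO embryos the same RNAs were low at stage 8. At stage 7 edgeR called 0 of the 7 against WT, where 49.2% of all genes were called. DESeq2 called 0 too, and 0 had an unadjusted p under 0.05. WT of stage 7 held 0 to 2 counts per gene (8 for nog), so a fall against it could hardly be called. At stage 8 chrd.1 stood at 0.191 and 0.114 CPM (8 and 4 counts) against 3.84 and 2.18 CPM in WT, a log2 change of -4.25 ± 0.33 (adjusted p = 1.7e-12). Admp stood at 2.36 and 3.30 CPM (-2.07 ± 0.22, adjusted p = 5.6e-09) and dkk1 at 0.573 and 0.398 CPM (-1.76 ± 0.39, adjusted p = 0.00028). With nog, at 0.167 and 0.370 CPM, 4 of the 7 were lower than in WT, where 26.4% of all genes were. The nog call (-1.80 ± 0.56, adjusted p = 0.0058) was lost without WT stage 8 replicate 2 (0.064) or OTX1 MO stage 8 replicate 1 (0.090). Fst, at 0.263 and 0.512 CPM, was not called (-1.13 ± 0.53, adjusted p = 0.073), but it was with DESeq2 (0.037), with no filter on low counts (0.043) and without OTX1 MO stage 8 replicate 2 (0.036). Within OTX1 MO embryos 3 RNAs rose from stage 7 to 8 (an added comparison), where 2.19% of all genes rose. Admp rose by 5.33 ± 0.51 (adjusted p = 2.8e-08, and by 4.28 or 9.00 without OTX1 MO stage 7 replicate 1 or 2), dkk1 by a ratio of 15.3 with a counting interval of 3.95 to 131, and fst by at least 7.78-fold. The fst call was lost without OTX1 MO stage 7 replicate 1 (0.094), stage 7 replicate 2 (0.077) or stage 8 replicate 2 (0.061), and the dkk1 call without stage 7 replicate 1 (0.11).

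**Figure D5:**
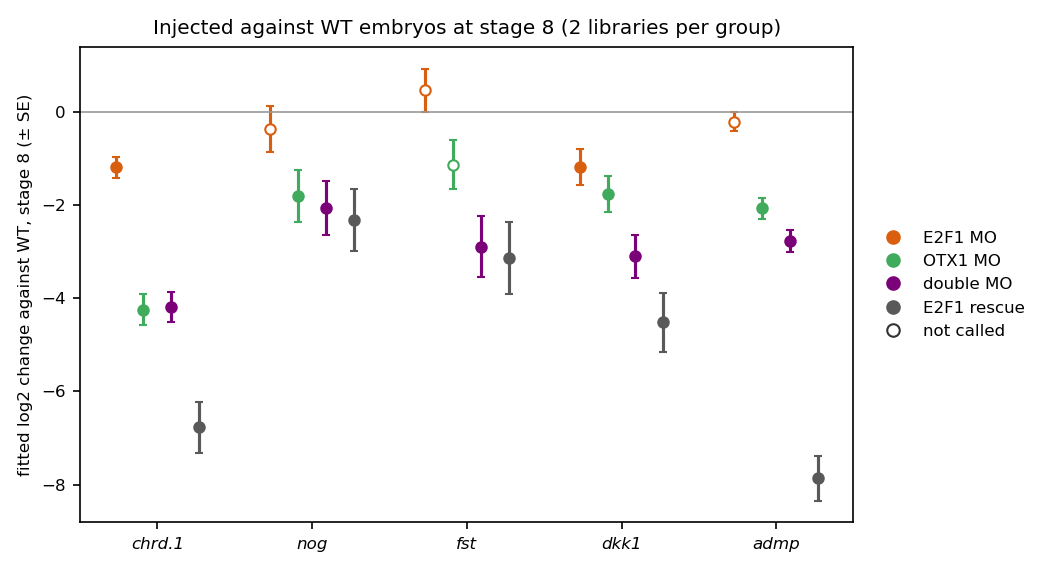
Fitted log2 change against WT at stage 8 (± SE derived from the change and its F statistic, 2 libraries per group) for 5 genes. The 4 kinds of injected embryo are shown, with open symbols for changes not called. Changes ran from 0.46 for fst in E2F1 MO to -7.87 for admp in rescue, and the rescue values of chrd.1, dkk1 and admp rest on 3 counts or fewer, so their size depends on the prior count.

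Embryos given both morpholinos held low levels as well. At stage 7 edgeR and DESeq2 called 0 of the 7 against WT (50.3% of all genes called), with 0 at an unadjusted p under 0.05. Here too a fall below the 0 to 2 WT counts per gene (8 for nog) could hardly be called. At stage 8 all 5 RNAs were lower than in WT, where 27.2% of all genes were lower. Admp stood at 1.70 and 1.77 CPM (-2.77 ± 0.24, adjusted p = 7.3e-11), chrd.1 at 0.118 and 0.221 CPM (-4.19 ± 0.33, adjusted p = 2.3e-12) and dkk1 at 0.165 and 0.221 CPM (-3.1 ± 0.46, adjusted p = 6.5e-07). All of these lay below both WT libraries and below both E2F1 MO libraries of that stage. Fst, at 0.0942 and 0.127 CPM, changed by -2.89 ± 0.66 (adjusted p = 0.00035), and nog, at 0.165 and 0.285 CPM, by -2.06 ± 0.58 (adjusted p = 0.0024).

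Both single morpholinos were then set against their combination. Double MO was lower than E2F1 MO for all 5 RNAs at stage 7, where 24.1% of all genes were lower, and for all 5 at stage 8, where 22.3% were. Chrd.1 was at least 41.1-fold lower at stage 7 and changed by -3.01 ± 0.36 at stage 8 (adjusted p = 4.3e-08), and admp by -7.27 ± 0.41 (adjusted p = 2.4e-14) and -2.56 ± 0.23 (adjusted p = 4.3e-10). Without double MO stage 7 replicate 1 or 2 the admp change at stage 7 was -6.30 or -11.04. The nog calls were lost without E2F1 MO stage 7 replicate 1 (0.06) or double MO stage 7 replicate 1 (0.073) at stage 7, and without E2F1 MO stage 8 replicate 1 (0.25) or double MO stage 8 replicate 1 (0.14) at stage 8. Against OTX1 MO, edgeR called 0 of the 7 at stage 7 (3.74% of all genes called, 0 by DESeq2, 0 of the 7 with an unadjusted p under 0.05) and 0 at stage 8 (2.68% of all genes called, 0 by DESeq2). At stage 8, 3 had an unadjusted p under 0.05, namely admp at -0.70 ± 0.26, dkk1 at -1.35 ± 0.50 and fst at -1.76 ± 0.68 (adjusted p of 0.19, 0.20 and 0.22), and in each of these both double MO libraries lay below both OTX1 MO libraries. Such separation was not counted over all genes. Admp was called there with no filter on low counts (adjusted p = 0.041).

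OTX1 MO was also lower than E2F1 MO directly. All 5 RNAs were lower at stage 7, where 23.5% of all genes were, and 4 were lower at stage 8, where 21.7% were. Dkk1 at stage 8 was the exception (-0.57 ± 0.41, adjusted p = 0.27). Nog at stage 7 (-2.05 ± 0.58, adjusted p = 0.0032) was lost without E2F1 MO stage 7 replicate 1 (0.06). At stage 8, nog (adjusted p = 0.027) and fst (0.0052) were lost without E2F1 MO stage 8 replicate 1 (0.39 and 0.27) or OTX1 MO stage 8 replicate 1 (0.26 and 0.092). Within double MO embryos, in an added comparison, admp, chrd.1 and dkk1 rose from stage 7 to 8, where 1.95% of all genes rose. Admp rose by 4.54 ± 0.56 (adjusted p = 7.6e-06, and by 3.57 or 8.31 without stage 7 replicate 1 or 2), and chrd.1 and dkk1 by at least 3.12- and 3.64-fold. The latter 2 calls were lost without any 1 of double MO stage 7 replicate 1, stage 7 replicate 2, stage 8 replicate 1 and stage 8 replicate 2 (adjusted p of 0.053 to 0.18).

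Departure from additivity on the log2 scale was tested as the interaction of the 2 morpholinos. At stage 7 the interaction was called, with a negative value, for chrd.1 (-10.60, adjusted p = 0.0073), dkk1 (-9.90, adjusted p = 0.0024), admp (-8.29, adjusted p = 0.00077) and nog (-2.77 ± 0.99, adjusted p = 0.026). Of all genes 34.3% were called in either direction. For the first 3 genes WT and OTX1 MO held 0 to 4 counts, so an OTX1 effect could not be measured there. Their calls reflect double MO below E2F1 MO and cannot decide on additivity. The first 3 values rest on groups with 0 to 4 counts and are not measures of size, and without OTX1 MO stage 7 replicate 2 their adjusted p was 1. The nog call was lost without WT stage 7 replicate 2 (0.089), E2F1 MO stage 7 replicate 1 (0.09), OTX1 MO stage 7 replicate 1 (0.11) or double MO stage 7 replicate 1 (0.11). At stage 8 only fst was called (-2.22 ± 0.82, adjusted p = 0.033), where 35.9% of all genes were. It was lost with the replicate block (0.07), with fewer libraries in the fit (0.085), and without WT stage 8 replicate 2 (0.077), E2F1 MO stage 8 replicate 1 (0.21), OTX1 MO stage 8 replicate 2 (0.18) or double MO stage 8 replicate 1 (0.13) or 2 (0.058). Chrd.1 and admp, at 1.25 ± 0.64 and -0.49 ± 0.32, did not pass the test at that stage (adjusted p of 0.14 and 0.26), except chrd.1 without WT stage 8 replicate 2 (1.57, adjusted p = 0.049).

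The ratio of chrd.1 to admp was also followed in the injected embryos, without a test. Relative to admp, chrd.1 stood at 10.0 ± 0.357% of the admp TPM in E2F1 MO at stage 7, 7.06 ± 0.0797% in E2F1 MO at stage 8, 3.1 ± 1.76% in OTX1 MO at stage 8 and 5.25 ± 2.12% in double MO at stage 8. In WT the 2 libraries of stage 8 held 8.92 and 19.7%, so that the E2F1 MO values of stage 7 lay within the WT range and the others below it. The summed TPM of the 7 genes was 24.2 ± 0.585 and 21.9 ± 1.83 in E2F1 MO at stages 7 and 8, against 0.596 ± 0.254 and 28.0 ± 2.40 in WT. At stage 8 it was 6.78 ± 1.47 in OTX1 MO, 4.23 ± 0.700 in double MO and 1.07 ± 0.0504 in rescue. Fewer expressing cells and less RNA per cell cannot be told apart in whole embryos.

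The partner genes in OTX1 MO and double MO embryos at stage 8 moved in both directions. Of 18 organizer transcription factor genes 3 were higher and 9 lower in OTX1 MO than in WT, and 2 higher and 10 lower in double MO, where 28.1% and 28% of all genes were higher and 26.4% and 27.2% lower. Otx1, the target of the OTX1 morpholino, is in this list and was among the higher genes in both groups (log2 changes of 0.78 and 0.90). The gene not stood at 15.9 ± 0.438 and 13.4 ± 1.92 CPM in these groups, against 61.6 CPM in WT, whereas tcf7l1, a repressor of Wnt target genes, was higher in OTX1 MO, at 105 against 41.2 CPM. Of the 17 BMP-class genes 7 were higher and 6 lower in each group, and of the 24 Nodal and Wnt genes 6 were higher in each and 10 and 12 lower. Bmp2 was higher in both, at 54.0 and 50.2 against 18.2 CPM, as was wnt11, at 5.28 and 6.29 against 0.16 CPM. Nodal3.1 stood at 3.38 and 2.48 against 13.1 CPM. Of the 13 antagonist, modulator and protease genes 0 and 2 were higher and 5 and 5 lower, with dand5 at 366 and 352 against 551 CPM. Of the 13 Wnt antagonist genes 3 and 2 were higher and 1 and 1 lower.

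For each gene the order of the 22 group means placed WT stages 13, 10 and 9 in the first 3 places, with 1 exception. In fst, E2F1 MO at stage 7 (1.33 ± 0.258 CPM) stood level with WT at stage 9 (1.32 ± 0.290 CPM). In chrd.1, nog, dkk1 and admp WT at stage 8 came next, followed by E2F1 MO at stages 7 and 8. The ranges of WT at stage 8 and E2F1 MO at stage 7 overlapped for chrd.1, nog and admp. They did not for dkk1, where WT at stage 8 stood at 1.67 ± 0.134 CPM and E2F1 MO at 0.749 ± 0.0583 CPM. Double MO and OTX1 MO at stage 8 overlapped for chrd.1 and nog.

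The profiles of the 7 genes over the 22 group means were compared with each other. Pearson correlations of mean log2(CPM + 0.5), given as a description over the 22 groups, were 0.985 between cer1 and frzb, 0.985 between chrd.1 and dkk1 and 0.983 between chrd.1 and nog. They were 0.895 between frzb and dkk1, 0.879 between frzb and chrd.1 and 0.862 between fst and admp, and the lowest was 0.618 between cer1 and admp. Among 12390 other genes with at least 5 CPM in some group, the closest named profiles were dlx5 for chrd.1 (0.998), foxi1 for nog (0.988), hes5.7 and hes3 for fst (0.989 and 0.986), sla for cer1 (0.995), avp and sebox for frzb (0.999 and 0.995), dusp5, foxa4 and foxd4l1.1 for dkk1 (0.992 to 0.993) and ventx2.2 for admp (0.991). With the 9 WT groups alone, all 3 closest genes were the same for cer1, 2 for frzb and dkk1, and 1 for chrd.1, nog and admp. Of the genes named here, sla, avp, dusp5 and foxd4l1.1 were among the 3 closest in WT alone, and dlx5, foxi1, hes5.7, hes3, sebox, foxa4 and ventx2.2 were not.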

How the data were processed

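Deposited read counts per gene were used, 1 column per library. Per the submitters' processing notes the tools included fastp, STAR 2.7.0e, featureCounts 2.0.1 and deepTools, and per the labels' protocols the kit for mRNA libraries was a stranded one. The sources used here name no genome build, annotation or strand option of featureCounts. All 44 libraries entered 1 fit with edgeR 4.0.16 (limma 3.58.1, R 4.3.3): filterByExpr with a minimum count of 10, TMM factors, robust quasi-likelihood test, Benjamini-Hochberg adjustment over 16064 genes, calls at an adjusted p under 0.05. The fit had 22 residual degrees of freedom, and the biological coefficient of variation was 6.11%. TPM used the gene lengths of the table.

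Where a group had 0 counts, folds are bounds against 3 counts over the group. With 1 to 3 counts they are ratios with 95% intervals. Intervals and floors cover counting error only. Fitted log2 changes used the default prior count of edgeR, and 0.5 was added to CPM before the logarithm for the profile correlations. Each SE is the size of the log2 change divided by the square root of its F statistic, so it too depends on the prior count. Alternatives were RLE factors, total counts alone, no filter, DESeq2 1.42.0, fewer libraries, a replicate block and leaving out each library, the last with the dispersion trend of all libraries. Scripts were tested on simulated counts. The members and gene lists were chosen with earlier results of these data known. Named list genes were the called ones with the largest changes (at most 3 a list) and at least 5 CPM in 1 group, at WT stages 8 to 13 and in injected embryos at stage 8. Those named at stage 7, and further values of named genes, were chosen after their values were seen. Gene symbols were matched to RefSeq (UCB_Xtro_10.0), with all 7 found. One of the genes that the likeness rule names is not reported here.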

Additional observations from a re-analysis of the deposited data

Results flagged for a closer look

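The effect of the E2F1 morpholino on 5 of the genes differed between stages 7 and 8 by a test of the difference itself. The value for stage 8 minus stage 7 was -9.80 for chrd.1, -3.12 for nog, -5.59 for fst, -8.29 for dkk1 and -8.58 for admp on the log2 scale (edgeR, adjusted p of 5.8e-13, 0.0017, 5.5e-05, 1.1e-07 and 2.8e-13). In each of the 5 both E2F1 MO libraries lay above both WT libraries at stage 7, a separation that was not counted over all genes. The interaction of the E2F1 and OTX1 morpholinos was called at stage 7 for chrd.1 at -10.60, nog at -2.77, dkk1 at -9.90 and admp at -8.29 (adjusted p of 0.0073, 0.026, 0.0024 and 0.00077). At stage 8 it was called for fst at -2.22 (adjusted p = 0.033). For chrd.1, dkk1 and admp, WT and OTX1 MO held 4 counts or fewer at stage 7, so these calls cannot decide on additivity. Without OTX1 MO stage 7 replicate 2 the adjusted p was 1 for chrd.1, dkk1 and admp at stage 7. The nog call was lost without any 1 of 4 libraries (0.089 to 0.11), and the fst call at stage 8 with the replicate block (0.07), with fewer libraries in the fit (0.085) and without any 1 of 5 libraries (0.058 to 0.21). All values other than those of nog, and of fst at stage 8, depend on the prior count, since some groups held 4 counts or fewer. Neil3 and nostrin RNA also separated the embryo groups of these stages, and their part in the differences was not tested.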

How the results depend on the processing

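No called change turned. Direction and side of the threshold were kept with RLE factors by 119 of 120 values, with total counts alone by 116 of 120, with no low-count filter by 118 of 120, with DESeq2 by 117 of 120, with fewer libraries in the fit by 107 of 112, and without single libraries by 466 of 536. With total counts alone the uncalled admp changes turned, to -0.08 at WT stage 10 against 9 and -0.02 at stage 13 against 10. Without single libraries 10 values of uncalled changes turned or went to 0. Their ranges were 0 to 5.29 for dkk1 at WT stage 5 against 4, -5.29 to 0 for dkk1 in E2F1 MO against WT at stage 5, 0 to 5.07 for fst in rescue stage 8 against 7, -0.19 to 0.14 for admp in E2F1 MO stage 7 against WT stage 8, -0.96 to 0.30 for fst in E2F1 MO stage 8 against 7, -0.29 to 0.96 for fst in E2F1 MO against WT at stage 8, and -0.38 to 0.14 for the stage 8 interaction of dkk1. With no filter 1 of the 7 genes was called for double MO against OTX1 MO at stage 8 in place of 0. With fewer libraries in the fit the counts were 0 for the stage 8 interaction, 0 for E2F1 MO stage 8 against 7, 1 for double MO stage 8 against 7 and 1 for E2F1 MO stage 7 against WT stage 8, in place of 1, 1, 3 and 2. In the third of these chrd.1 and dkk1 did not pass the filter on low counts in the smaller fit and were not tested, nor were 6 values of other comparisons. For WT stage 9 against 8 the count with fewer libraries was 5 in place of 4, also with DESeq2, by the addition of dkk1. At 0.5 CPM nog and fst were first detected at stage 8, and at 2 CPM fst at stage 10 and dkk1 at stage 9. Leaving out single libraries gave 0 to 1 calls for WT stage 5 against 4, 2 to 4 for WT stage 9 against 8, 1 to 4 for the stage 7 interaction, 0 to 1 for the stage 8 interaction, 1 to 2 for E2F1 MO against WT at stage 8, 0 to 2 for E2F1 MO stage 7 against WT stage 8, 0 for E2F1 MO stage 8 against 7, 2 to 4 for OTX1 MO against E2F1 MO at stage 8, 1 to 3 for OTX1 MO stage 8 against 7 and 1 for double MO stage 8 against 7. The cause was not tested.

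Same-numbered libraries deviated together with correlations of -0.05 to 0.11 in 37 comparisons, with 1 over 0.1. These values show no sign that the numbers pair the libraries, which the labels do not state. With the replicate block 115 of 116 values kept direction and side of the threshold, and the stage 8 interaction gave 0 calls in place of 1. Depth limits all statements on stages 3 to 6, where 3 counts are 0.133 to 0.192 CPM.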
